A study of Mus musculus with 6 samples.

Results

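The genes described here are Tnf, the gene of the inflammatory cytokine tumour necrosis factor, and genes tied to NF-kappaB signalling. Nfkbia, Nfkbiz, Tnfaip3, Nfkb1, Nfkb2, Relb and Birc3 encode parts or regulators of that signalling. Icam1, an adhesion gene, and Tnfaip2, a gene induced by TNF, were grouped with them. These 10 genes, called members below, were taken by symbol from the deposited gene table. In it 9 of the 10 had a row among 27634 genes. Nfkbiz had no row under its symbol. A row named IkappaB-zeta, which the table describes as a partial mRNA of the protein that Nfkbiz encodes, is given beside the 9 genes and is not counted with them.

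The libraries hold RNA of cells labelled cancer-associated dendritic cells, taken from C57BL/6 mice with ID8-Defb29/Vegf-a tumours, which arise from a mouse ovarian cancer line made to express beta-defensin 29 and VEGF-A. The libraries fall into 2 experiments that the labels name by how strongly Satb1, the gene of a chromatin organiser, was downregulated. In the high experiment 2 libraries came from mice given Satb1 siRNA and 2 from mice given non-targeting (NT) siRNA. In the low experiment 1 library came from each. All mice, controls included, carried the tumour and received 100 µg siRNA in rhodamine-conjugated polyethylenimine nanocomplexes over 32 to 38 days, so no untreated or tumour-free mouse is among them. Per the labels RNA was total RNA isolated with Trizol, and the libraries were made with a stranded kit for total RNA. The labels do not say how the cells were sorted or whether the libraries of a group come from different mice.

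Total counts ran from 24553454 to 71272720 per library. The repeats of a group in the high experiment differed by little more than counting noise, with a chi-square per gene of 1.37 for Satb1 siRNA and 1.2 for NT, against 67.4 between a Satb1 siRNA and an NT library. The tests below take the repeats as separate libraries, so their p-values, SEs and calls compare these libraries and measure only the spread between the repeats, which may be technical. As a statement on the conditions each group counts as 1 sample, and the fit that sums the repeats is given beside the counts. Satb1 stood at 3.12 and 3.58 CPM (read counts scaled to a common library total, with TMM factors over all 6 libraries) in the high Satb1 siRNA libraries and at 16.6 and 15.3 CPM in the high NT libraries, a log2 fold change of -2.25 (SE 0.072). Its level in the low experiment was 7.42 CPM in the library labelled Satb1 siRNA and 8.89 CPM in the NT library, a log2 ratio of -0.26 with a 95% counting interval of -0.58 to 0.058. Relative to unscaled library totals, Satb1 was at 6.72 CPM in that low Satb1 siRNA library, against 6.29 CPM in the low NT library, so that the lower level rested on the scaling. The labelled cell type was checked against 8 dendritic cell markers, whose summed level was 199 and 191 CPM with Satb1 siRNA and 365 and 363 CPM with NT in the high experiment, but 8420 CPM with Satb1 siRNA and 8732 CPM with NT in the low experiment. The 7 macrophage markers summed to 2828 and 2821 CPM with Satb1 siRNA and 2725 and 2728 CPM with NT in the high experiment. In the low experiment they summed to 2856 CPM with Satb1 siRNA and 4363 CPM with NT. Most of each high sum came from Mrc1, at 1672 and 1673 CPM with Satb1 siRNA and 1576 CPM in both NT libraries. In the low experiment Mrc1 was at 438 CPM with Satb1 siRNA and 556 CPM with NT. Between the NT libraries Mrc1 and Vsig4 were lower in the low experiment, and the other macrophage markers were higher there. Single dendritic cell markers went both ways within the high experiment. Flt3 was higher, at 1.88 and 1.59 CPM with Satb1 siRNA and at 0.875 and 1.05 CPM with NT. Itgax was lower, at 5.47 and 4.93 CPM with Satb1 siRNA and at 20.3 and 20.2 CPM with NT. Cd74 and H2-Ab1, the markers at the highest levels, were lower as well. The high libraries thus hold lower summed levels of the markers of their labelled cell type than the low libraries. All libraries are called by their labels below.

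NF-kappaB is a family of dimeric transcription factors that rest in the cytoplasm, bound by inhibitors of the IkappaB family. Tumour necrosis factor, Toll-like receptor ligands and interleukin 1 activate the IKK kinases, the inhibitor is degraded, and the dimer enters the nucleus and switches on inflammatory genes. Among its targets are Tnf itself, the genes of its own inhibitors and those of its own subunits, and in macrophages and dendritic cells this loop is known to set the size and length of the response.

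The promoter sequences of the members show how the binding letters of NF-kappaB are placed next to their starts. RefSeq's table for build GRCm38.p6 held 7 of the 10 members, with 10 windows of 250 bases before a start, and it held none for Nfkb1, Relb and Nfkbiz. Both strands were searched for the NF-kappaB consensus, which is 3 G, a purine, any 2 bases, 2 pyrimidines and 2 C. A stricter form, which is 3 G, any 2 bases, 3 T and 2 C, was searched as well. The consensus was found in 6 of the 10 windows, belonging to the 4 genes Tnfaip3, Tnfaip2, Nfkbia and Nfkb2, and in 7.25% of the 32851 promoters in the table. Windows of 3 of these genes, Tnfaip3, Nfkbia and Nfkb2, held the stricter form, as did 1.41% of all promoters. These are matches of letters and not measured binding. No match says only that these exact letters are not in that window, and a site that departs from them at any base is not counted. The bases next to the start are given for the genes with a match and, over 150 bases, for Tnf, the member that changed most in the high experiment. Each runs 5′ to 3′ on the gene's strand up to the base before the start, with matches on either strand in capitals. The stretches lie at chr17:35202008-35202157, minus strand, for Tnf; at chr10:19015411-19015550, minus strand, for Tnfaip3; at chr12:111442622-111442660, plus strand, for Tnfaip2; at chr12:55492648-55492691, minus strand, for Nfkbia; and at chr19:46304683-46304736, plus strand, for Nfkb2.
Tnf: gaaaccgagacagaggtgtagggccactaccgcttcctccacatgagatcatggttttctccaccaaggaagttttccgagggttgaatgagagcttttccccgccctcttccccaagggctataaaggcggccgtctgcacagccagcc
Tnfaip3: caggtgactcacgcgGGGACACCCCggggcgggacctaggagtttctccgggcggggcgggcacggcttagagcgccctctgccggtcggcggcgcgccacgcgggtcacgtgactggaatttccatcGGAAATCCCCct
Tnfaip2: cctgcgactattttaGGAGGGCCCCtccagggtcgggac
Nfkbia: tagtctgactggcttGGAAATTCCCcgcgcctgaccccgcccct
Nfkb2: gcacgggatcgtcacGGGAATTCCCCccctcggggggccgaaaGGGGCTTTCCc
The window of Tnf held no match, and neither did those of Birc3 and Icam1. In Tnfaip3 the match farther from the start is of the consensus alone and the nearer one is also of the stricter form. The first run of capitals in Nfkb2 holds a pair of overlapping matches, and its second run holds the stricter form. The single match of Nfkbia is of the stricter form, and that of Tnfaip2 is not.

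In the high experiment Tnf and most of the other members were lower with Satb1 siRNA, and Tnf by far the most. Of the 9 members, 8 were called lower at an adjusted p under 0.05 and none higher, where 33.2% of all 20242 genes tested were called lower and 32.8% higher. No member was higher at an unadjusted p under 0.05 either, and DESeq2 also called 8 lower and none higher. Tnf and Tnfaip3 were lower by at least 2-fold, as were 3.94% of all genes. The median log2 fold change was -0.37 over the members and 0.011 over all genes. The test was edgeR's quasi-likelihood F-test on the counts of the 4 libraries, with Benjamini-Hochberg adjustment over all genes. In bulk RNA such as this, fewer cells of a type and less RNA per cell cannot be told apart. With the repeats summed, so that each siRNA group of each experiment was 1 sample, edgeR called 1 member lower, Tnf, and DESeq2 called 3, Tnf, Tnfaip3 and Nfkbia. Cell type markers moved between the same libraries. The 8 dendritic cell markers, with the sums given above, were called lower in 4 cases and higher in 4. The 5 B cell markers, called higher in 3 cases, summed to 10.2 and 9.89 CPM with Satb1 siRNA and to 5.48 and 5.52 CPM with NT. Of the macrophage markers, nearly level in sum, 5 of 7 were called higher and 1 lower. All 4 endothelial markers were called lower, with sums of 8.02 and 8.46 CPM with Satb1 siRNA and 11.6 and 11.9 CPM with NT. The part of these markers in the members' changes was not tested.

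In the low experiment all 9 members were lower in the library labelled Satb1 siRNA. Of 12977 genes, 55.9% were lower with TMM scaling and 24.7% with library totals alone. With TMM scaling the members' fall was larger than in the high experiment for every member except Tnf. That order was turned for Nfkb2 with library totals alone (-0.25 in the low and -0.27 in the high experiment). In the authors' FPKM it was turned for Nfkb2 (-0.24 in the low and -0.27 in the high experiment) and for Relb (-0.35 in the low and -0.50 in the high experiment). The ratio was 2-fold or more for 6 of them, where 3.36% of 12977 genes were that much lower. Their median log2 ratio was -1.09, against -0.065 for all genes. There is 1 library per siRNA, so the ratios have no replicate check, and their 95% intervals cover counting error only. Relative to unscaled library totals the median of all genes moved to 0.29. By that scaling 4 members, Tnf, Tnfaip3, Nfkbia and Icam1, were lower by 2-fold or more, as were 1.42% of all genes. The ratios that moved by over 1.5 times under that scaling were those of Nfkb1 (-0.14), Nfkb2 (-0.25), Relb (-0.37) and Birc3 (-0.68). Markers of other cells moved in the same comparison: the 6 neutrophil markers summed to 254 CPM in the library labelled Satb1 siRNA, against 536 CPM in the NT library, with all 6 lower and 4 of them by at least 2-fold. The 5 mesothelial or epithelial markers summed to 482 CPM in the library labelled Satb1 siRNA, against 129 CPM in the NT library, with all 5 higher. Of the 7 macrophage markers 6 were lower, and all 5 B cell markers were lower, with a sum of 19.6 CPM in the library labelled Satb1 siRNA and 29.5 CPM in the NT library. Of the 8 dendritic cell markers 6 were higher in the library labelled Satb1 siRNA, with log2 ratios from 0.77 (Itgax) to 1.34 (Flt3). The other 2, Cd74 and H2-Ab1, make up most of the nearly level sum given above. None of these markers was at 0 in either low library, and their part in the members' ratios was not tested.

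**Figure D1:**
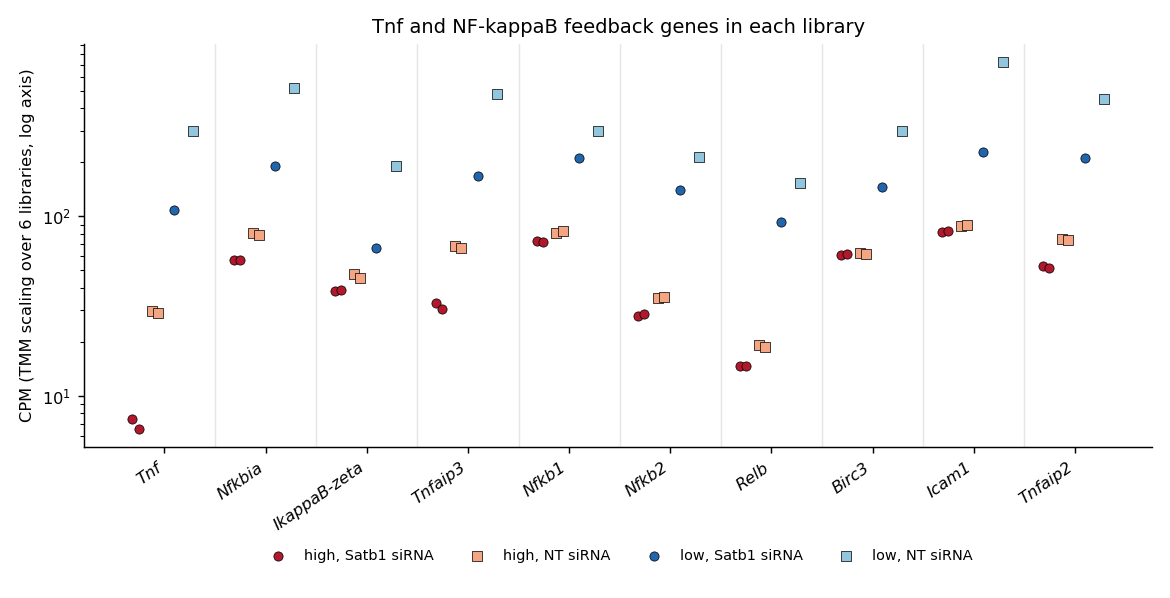
Level of each member, and of the row IkappaB-zeta, in all 6 libraries, in CPM with TMM scaling on a log axis; each point is 1 library, circles are Satb1 siRNA and squares NT. By this scaling the low NT library is highest for every gene, with the low Satb1 siRNA library next, then the high NT libraries, and the high Satb1 siRNA libraries lowest; Birc3 and Icam1 are nearly level within the high experiment, and Birc3 changes places there with library totals alone.

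Tnf encodes the ligand that binds the TNF receptors and, through them, activates NF-kappaB. It stood at 7.42 and 6.53 CPM in the high Satb1 siRNA libraries and at 29.6 and 28.8 CPM in the high NT libraries. The groups were far apart, and the repeats of each lay close together. The log2 fold change was -2.06 (SE 0.049, edgeR adjusted p 6.54e-48), which is 4.16-fold lower. At the higher levels of the low experiment, Tnf stood at 109 CPM in the library labelled Satb1 siRNA and at 301 CPM in the NT library. Even the lower of these was above every library of the high experiment. The log2 ratio was -1.47 (95% counting interval -1.54 to -1.40).

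Nfkbia encodes IkappaB-alpha, the inhibitor that holds NF-kappaB in the cytoplasm and is made anew after each activation. Its levels were 56.8 and 57.3 CPM in the high Satb1 siRNA libraries and 80.6 and 78.6 CPM in the high NT libraries. The Satb1 siRNA libraries were both below the NT libraries, by about the same amount. The log2 fold change was -0.48 (SE 0.025, edgeR adjusted p 3.09e-28). Nfkbia in the low experiment stood at 190 CPM in the library labelled Satb1 siRNA, against 523 CPM in the NT library, a log2 ratio of -1.46 (-1.51 to -1.41). Between these libraries the fall in the low experiment was the larger by 0.98 on the log2 scale.

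The row IkappaB-zeta stands for a nuclear IkappaB protein that works as a coactivator at some secondary response genes. It was at 38.2 and 39.0 CPM in the high Satb1 siRNA libraries, compared with 48.0 and 45.5 CPM in the high NT libraries. These groups did not overlap, although the gap was small. The log2 fold change was -0.27 (SE 0.030, edgeR adjusted p 1.84e-12). The low experiment had it at 66.3 CPM in the library labelled Satb1 siRNA and at 191 CPM in the NT library, a log2 ratio of -1.53 (-1.62 to -1.44). Nothing in the labels or headers says how reads were divided between this row and other transcripts of the gene.

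Tnfaip3 encodes A20, a ubiquitin-editing enzyme that switches the signal off upstream of IKK. It stood at 32.8 and 30.5 CPM in the high Satb1 siRNA libraries and at 68.1 and 66.5 CPM in the high NT libraries. Both Satb1 siRNA libraries were below either NT library by about the same factor. The log2 fold change was -1.08 (SE 0.029, edgeR adjusted p 7.68e-42), the second largest fall among the members. Tnfaip3 in the low experiment stood at 169 CPM in the library labelled Satb1 siRNA, against 481.5 CPM in the NT library, a log2 ratio of -1.51 (-1.57 to -1.46).

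The subunit genes had the 3 smallest falls of the members in the low experiment, and in the high experiment smaller changes than Tnf, Nfkbia, Tnfaip3 and Tnfaip2. Nfkb1 encodes p105, the precursor of the p50 subunit, and was at 73.0 and 71.9 CPM in the high Satb1 siRNA libraries, compared with 81.2 and 82.4 CPM in the high NT libraries. The groups did not overlap, and the log2 fold change was -0.17 (SE 0.024, edgeR adjusted p 2.18e-09), while in the authors' FPKM the log2 ratio was -0.032. Nfkb1 in the low experiment was at 211 CPM in the library labelled Satb1 siRNA and at 298 CPM in the NT library, a log2 ratio of -0.50 (-0.55 to -0.44).

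Nfkb2 encodes p100, the precursor of the p52 subunit, which belongs to the alternative branch of the pathway. It stood at 28.0 and 28.4 CPM in the high Satb1 siRNA libraries and at 35.1 and 35.6 CPM in the high NT libraries. Again the groups did not overlap, and the log2 fold change was -0.32 (SE 0.033, edgeR adjusted p 5.76e-14). Nfkb2 in the low experiment stood at 140.5 CPM in the library labelled Satb1 siRNA, against 213 CPM in the NT library, a log2 ratio of -0.60 (-0.67 to -0.54).

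Relb encodes the partner of p52 in that branch, and among the subunit genes it had the lowest level per length in the high experiment. Its levels were 14.7 CPM in both high Satb1 siRNA libraries and 19.3 and 18.8 CPM in the high NT libraries. The groups lay apart, with a log2 fold change of -0.37 (SE 0.045, edgeR adjusted p 4.38e-11). Relb in the low experiment was at 92.9 CPM in the library labelled Satb1 siRNA and at 154 CPM in the NT library, a log2 ratio of -0.73 (-0.81 to -0.65).

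Birc3 encodes cIAP2, a ubiquitin ligase that takes part in TNF receptor signalling and protects cells from death. It stood at 60.9 and 61.6 CPM in the high Satb1 siRNA libraries, compared with 62.1 and 62.0 CPM in the high NT libraries. The groups were nearly level, although they too did not overlap by TMM-scaled CPM. The share of all genes without overlap was not computed. The log2 fold change of -0.013 (SE 0.025, edgeR adjusted p 0.649) was not called. Its direction flipped to 0.041 with library totals alone and to 0.011 with a stricter filter on low counts. Birc3 in the low experiment was at 146 CPM in the library labelled Satb1 siRNA and at 299 CPM in the NT library, a log2 ratio of -1.03 (-1.09 to -0.97).

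Icam1 encodes a surface adhesion molecule through which leukocytes bind each other and the vessel wall. Its levels were 82.4 and 82.6 CPM in the high Satb1 siRNA libraries and 88.7 and 89.0 CPM in the high NT libraries. The groups did not overlap, but the gap was narrow. The log2 fold change was -0.10 (SE 0.023, edgeR adjusted p 6.43e-05), and the call ended with library totals alone (-0.048, edgeR adjusted p 0.0541), while in the authors' FPKM the log2 ratio was -0.27. Icam1 in the low experiment stood at 230 CPM in the library labelled Satb1 siRNA, against 723 CPM in the NT library. That log2 ratio of -1.65 (-1.70 to -1.61) was the largest of the members.

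Tnfaip2 is induced by TNF and its product is known from work on membrane protrusions between cells. It was at 52.8 and 51.6 CPM in the high Satb1 siRNA libraries, compared with 75.1 and 73.7 CPM in the high NT libraries. Both Satb1 siRNA libraries were below both NT libraries, with a log2 fold change of -0.51 (SE 0.025, edgeR adjusted p 3.61e-29). Tnfaip2 in the low experiment was at 212 CPM in the library labelled Satb1 siRNA and at 452 CPM in the NT library, a log2 ratio of -1.09 (-1.14 to -1.04).

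**Figure D2:**
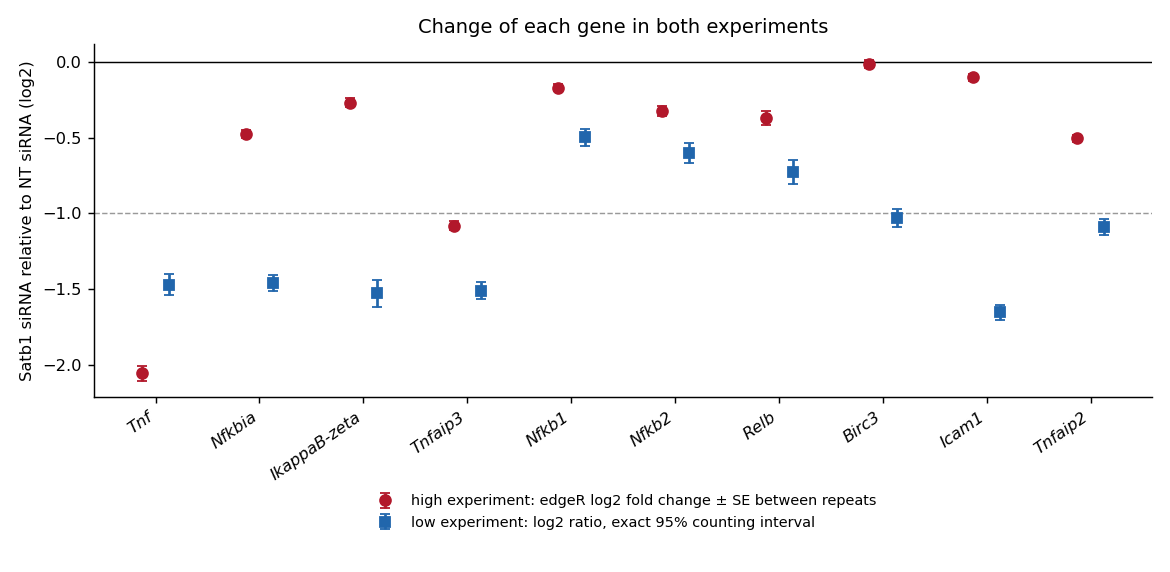
Log2 change with Satb1 siRNA relative to NT for each member and the row IkappaB-zeta. Circles are the high experiment (edgeR log2 fold change ± SE, obtained from the F statistic). Squares are the low experiment (log2 ratio of 1 library each with its exact 95% counting interval), and the dashed line marks a 2-fold fall. Tnf is the gene whose high value (-2.06) lies below its low value (-1.47), while Icam1 is near 0 in the high experiment (-0.10) and lowest in the low (-1.65).

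The size of the fall was also compared between the experiments. The low groups hold 1 library each, so edgeR's test of the difference takes all its spread from the high repeats, which differ by little more than counting noise. Its calls compare these 6 libraries and do not show that the conditions differ. It called all 9 members, where 39.7% of 20971 genes were called. The fall was larger in the low experiment for 8 members, which puts their high effect minus the low effect above 0. Of all genes, 17.9% were called with a difference above 0, whether they fell or rose with Satb1 siRNA. For Tnf the high effect minus the low effect was -0.59 on the log2 scale (SE 0.066), its fall being larger in the high experiment. A difference below 0 was called in 21.8% of all genes, again whether they fell or rose. The widest difference was that of Icam1, at 1.55 (SE 0.040), followed by Birc3 at 1.01 (SE 0.046). With library totals alone the test called 6 of the 9, with Nfkb1, Nfkb2 and Relb no longer called, while Tnf moved to -0.89, Tnfaip3 to 0.13 and Tnfaip2 to 0.28.

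The experiments also started from different levels. Each of the 9 members was higher in the low NT library than in the high NT libraries by more than 2-fold, where 27.0% of 13342 genes were. Tnf had the widest gap, 10.3-fold, with 301 CPM in the low NT library and 29.6 and 28.8 CPM in the high NT libraries. Icam1 was 8.13-fold and Relb 8.06-fold higher in the low NT library, and Nfkb1, with the smallest gap, 3.64-fold. Relative to unscaled library totals the gaps were smaller, at 6.66-fold for Tnf, 5.25-fold for Icam1, 5.21-fold for Relb and 2.35-fold for Nfkb1, and still over 2-fold for all 9. The median log2 ratio was 2.72 over the members and 0.14 over all genes. Summed over the 9 members, levels were 409 and 405 CPM in the high Satb1 siRNA libraries and 540 and 535 CPM in the high NT libraries, against 1500 CPM in the low library labelled Satb1 siRNA and 3444 CPM in the low NT library. The low library labelled Satb1 siRNA was above the high NT libraries for every member. By TMM-scaled CPM the order of the 4 groups was the same for all 9, but for Birc3 the high groups change places with library totals alone (69.5 and 70.3 CPM with Satb1 siRNA, 68.1 and 67.9 CPM with NT) and in the authors' FPKM. With 1 library per low group, no spread can be given for that order. The share of all genes in that order, or above the high NT libraries in the low library labelled Satb1 siRNA, was not computed. The dendritic cell markers differed between these control libraries in the same direction. Their summed level was 8732 CPM in the low NT library and 365 and 363 CPM in the high NT libraries. Most of the low sum came from Cd74 and H2-Ab1. Summed markers of mature migratory dendritic cells, macrophages, monocytes, neutrophils, B cells and endothelial cells were also higher in the low NT library. Those of neutrophils, for example, stood at 536 CPM there and at 76.5 and 76.7 CPM in the high NT libraries. Summed markers of T cells, natural killer cells and mesothelial or epithelial cells were lower in the low NT library. The part of these markers in the members' gap was not tested.

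Ratios between members within a library do not depend on how libraries were scaled. Per length, in the authors' FPKM, the level of Tnf was 12.6% and 11.2% of that of Nfkbia in the high Satb1 siRNA libraries, against 35.1% and 34.9% in the high NT libraries. The gap was wide, so that Tnf fell relative to Nfkbia, the gene of the NF-kappaB inhibitor. Within the low experiment Tnf was at 55.6% of Nfkbia in the library labelled Satb1 siRNA and at 56.1% in the NT library, so there the pair moved nearly in step. Tnfaip3 was at 20.5% and 18.9% of the FPKM level of Nfkbia in the high Satb1 siRNA libraries, against 29.7% and 29.8% in the high NT libraries. Birc3 moved the other way relative to Nfkbia, at 79.7% and 80.7% in the high Satb1 siRNA libraries and 55.6% and 55.95% in the high NT libraries. Between the low libraries, Birc3 was at 51.8% of Nfkbia in the library labelled Satb1 siRNA and at 37.5% in the NT library.

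By FPKM, which sets genes on a common length scale, Nfkbia had the highest level of the 9 members in all 4 groups, with a mean of 41.3 in the high Satb1 siRNA libraries, 55.1 in the high NT libraries, 108 in the low library labelled Satb1 siRNA and 231 in the low NT library. Tnf changed its place among them. It came last of the 9 in the high Satb1 siRNA libraries (mean FPKM 4.92) and was the sixth in the high NT libraries (19.3). In both low libraries it was the third, with an FPKM of 59.9 with the Satb1 siRNA label and 130 with NT.

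The rest of the pathway was followed in 10 lists of 84 genes, of which 80 had a row and all 80 were tested. In the high experiment 49 were called lower and 17 higher with Satb1 siRNA, and 14 were not called, against the shares of all genes given above. Their median log2 fold change was -0.23, and 5 were lower by at least 2-fold. In the low experiment 63 of 77 genes were lower in the library labelled Satb1 siRNA, 11 of them by at least 2-fold, with a median log2 ratio of -0.44. Over all 12977 genes 55.9% were lower, 3.36% by at least 2-fold, with a median of -0.065. Relative to unscaled library totals 45 of the 77 were lower, 4 by at least 2-fold, and their median was -0.084, against 24.7% of all genes, 1.42% and a median of 0.29. The lists were not tested as sets, and with the repeats summed edgeR called 0 of the 80 lower (26 at an unadjusted p under 0.05) and DESeq2 called 9.

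Among receptors and their proximal adaptors, 6 of 8 were called lower and 1 higher in the high experiment. Traf1, an NF-kappaB target that binds TNF receptor family members, was at 2.32 and 2.54 CPM in the high Satb1 siRNA libraries and at 5.48 and 5.51 CPM in the high NT libraries (log2 fold change -1.17, edgeR adjusted p 1.76e-17). Tradd, the adaptor of TNF receptor 1, had a log2 fold change of -0.47 (edgeR adjusted p 9.65e-07), and Traf5, another adaptor of the receptor family, rose by 0.52 (edgeR adjusted p 1.87e-42). Of the IKK complex and its upstream kinases, 5 of 10 were lower and 2 higher in the high experiment, all by small amounts. The largest were Tab1, a partner of the kinase TAK1, at -0.34, Tbk1, an IKK-related kinase, at -0.25 and Map3k8, the kinase TPL2, at -0.24 (edgeR adjusted p 9.67e-09, 4.37e-19 and 1.84e-11). In the low experiment Tab1 went the other way, at 34.7 CPM in the library labelled Satb1 siRNA and 22.6 CPM in the NT library. Tbk1 and Map3k8 were lower there, with log2 ratios of -0.67 and -0.41 by TMM scaling.

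The alternative branch had 3 of 7 genes lower and 2 higher. Ltb, a lymphotoxin chain with few reads, had a log2 fold change of -0.55, its receptor gene Ltbr -0.44 and the costimulatory receptor gene Cd40 -0.23 (edgeR adjusted p 0.00966, 6.71e-20 and 9.49e-08). Of the other Rel and IkappaB genes 5 of 7 were lower and 2 higher. Nfkbid, a nuclear IkappaB gene, was at 1.64 and 1.91 CPM in the high Satb1 siRNA libraries, compared with 4.57 and 5.15 CPM in the high NT libraries. That gap gave a log2 fold change of -1.45 (edgeR adjusted p 2.79e-19). Bcl3, a nuclear IkappaB gene as well, changed by -0.88 and Nfkbib, which encodes IkappaB-beta, by -0.43 (edgeR adjusted p 5.99e-13 and 8.82e-05).

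Among other negative feedback genes 9 of 14 were lower and 4 higher. Zfp36 encodes tristetraprolin, which binds the Tnf mRNA and speeds its decay. It stood at 17.1 and 16.6 CPM in the high Satb1 siRNA libraries and at 35.3 and 34.8 CPM in the high NT libraries (log2 fold change -1.05, edgeR adjusted p 2.98e-38). Socs3, an inhibitor of cytokine receptor signalling, changed by -0.88 and the immediate early gene Ier3 by -0.73 (edgeR adjusted p 1.20e-40 and 1.30e-37). In the low experiment 13 of the 14 were lower in the library labelled Satb1 siRNA with TMM scaling, as were 55.9% of all genes. With library totals alone 24.7% of all genes were lower, and no count was made for this list alone. Ier3 had the largest fall of the list in the low experiment, with a log2 ratio of -1.56 by TMM scaling.

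Of the other survival genes 7 of 8 were lower and 1 higher. Gadd45b, a stress gene, changed by -1.11, Bcl2a1d by -0.90 and Bcl2l1, the gene of Bcl-xL, by -0.49 (edgeR adjusted p 2.98e-34, 6.33e-13 and 1.25e-25). Bcl2a1d has near-identical copies, so the division of reads among them is uncertain. Bcl2a1d itself stood at 9.41 and 8.03 CPM in the high Satb1 siRNA libraries and at 17.1 and 15.5 CPM in the high NT libraries. The copy Bcl2a1b, the 1 gene called higher, stood far above it, at 598 and 594 CPM against 536 and 538 CPM (0.16, edgeR adjusted p 9.55e-39). The copy Bcl2a1a was called lower (-0.37). Among adhesion and surface targets 5 of 7 were lower and 2 higher. The urokinase receptor gene Plaur changed by -0.73, the adhesion gene Vcam1 by -0.60, and the endothelial selectin gene Sele, with at most 55 counts in a library, by -0.70 (edgeR adjusted p 3.20e-27, 7.49e-27 and 0.0128). The 4 endothelial markers were called lower between the same libraries, as given above, and their part in the values of Sele and Vcam1 was not tested.

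In the list drawn up for the release of TNF protein, 3 of 6 genes were lower and 2 higher. That list includes Lbp and Litaf, which are not known to act in the release. Timp3, which inhibits the protease that sheds TNF, was at 193 and 192 CPM in the high Satb1 siRNA libraries, compared with 144 and 141 CPM in the high NT libraries, and it rose by 0.44 (edgeR adjusted p 1.51e-34). It was also higher in the low library labelled Satb1 siRNA, at 127 CPM against 48.5 CPM in the low NT library. The mesothelial or epithelial markers were higher in the low comparison, as given above, and in the high experiment 4 of the 5 were called higher, with sums of 378 and 374 CPM with Satb1 siRNA and 324 and 327 CPM with NT. Their part in the values of Timp3 was not tested. Lbp, the gene of the lipopolysaccharide binding protein, rose by 0.60, while Litaf fell by 0.40 (edgeR adjusted p 2.10e-17 and 2.30e-40).

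Of the other TNF family ligands 4 of 7 were lower and 1 higher. Lta, the neighbour of Tnf that encodes lymphotoxin-alpha, had a log2 fold change of -2.07 (SE 0.53, edgeR adjusted p 0.000566), but it rested on 3 and 4 counts in the high Satb1 siRNA libraries against 28 and 12 counts in the high NT libraries. Tnfsf9, the gene of the 4-1BB ligand, changed by -0.76 and Tnfsf14, the gene of LIGHT, by -0.53 (edgeR adjusted p 2.86e-08 and 1.07e-07). Of the other Tnfaip genes 2 of 6 were lower and the other 4 were not called. Lower were Tnfaip8l1 at -0.39 and Tnfaip8l2 at -0.38 (edgeR adjusted p 0.0240 and 8.72e-17).

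**Figure D3:**
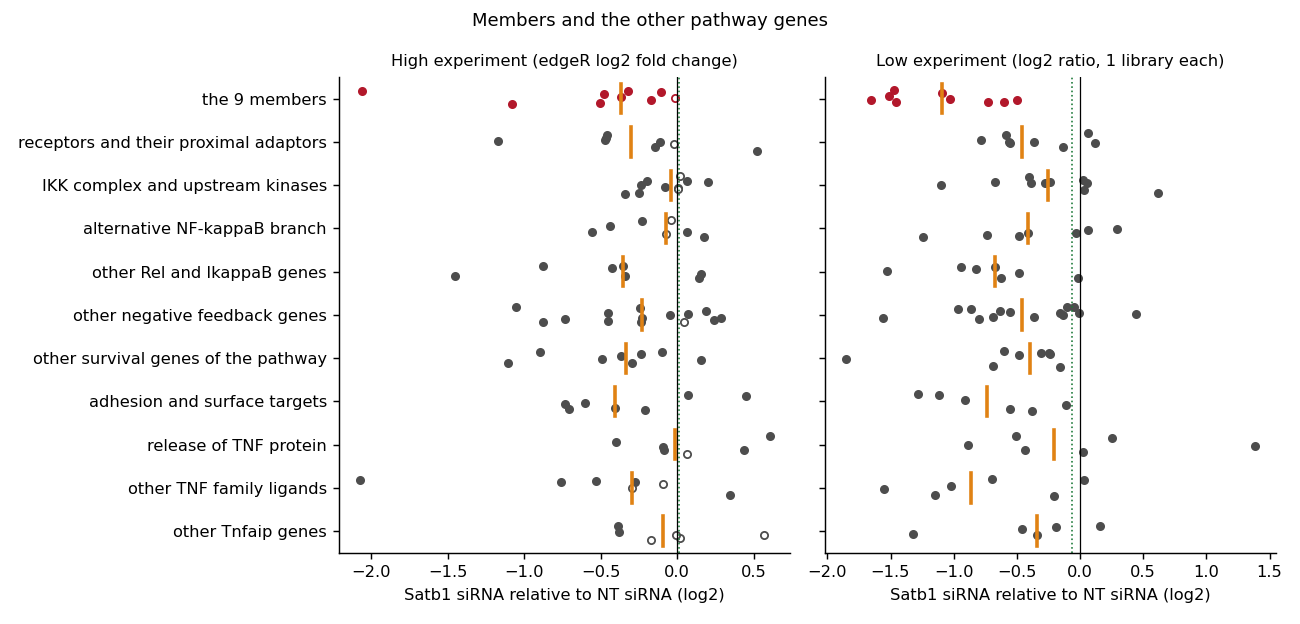
Log2 change with Satb1 siRNA relative to NT of the 9 members (top) and of the genes of the 10 pathway lists, in the high experiment (left) and the low experiment (right); each dot is a gene, open dots on the left were not called, orange bars are list medians and the green dotted line is the median of all genes. The members' medians are -0.37 on the left and -1.09 on the right.

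The genes whose profile over the 4 groups was nearest to that of Tnf were sought among 12318 genes, by the root mean square difference of log2 CPM after each profile was centred on its mean. The 6 nearest were Irg1 at 0.28, Mir147 at 0.28, Nfkbid at 0.33, Il1b at 0.36, Il1rn at 0.42 and Nr4a1 at 0.44. Irg1 encodes the enzyme that makes itaconate, Il1b interleukin 1 beta, Il1rn its receptor antagonist and Nr4a1 a nuclear receptor. Irg1 averaged 36.7 CPM in the high Satb1 siRNA libraries and 97.9 CPM in the high NT libraries, against 465 CPM in the low library labelled Satb1 siRNA and 1642 CPM in the low NT library. Mir147 is a row for a microRNA, and whether its counts come from a longer transcript over the same place was not tested. Of the other members the nearest to Tnf was Tnfaip3, at rank 51, followed by Relb at 226 and Tnfaip2 at 436. Nfkbia came at 493, Nfkb2 at 499, Icam1 at 682, Birc3 at 1354 and Nfkb1 at 1497.

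**Figure D4:**
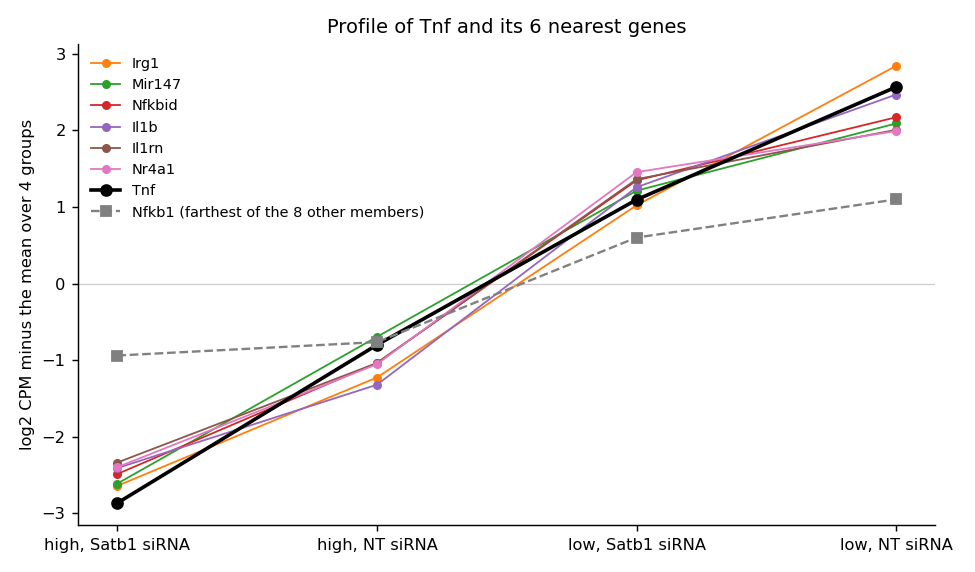
Log2 CPM minus the mean over the 4 groups, for Tnf (thick black line), the 6 genes nearest to it and Nfkb1 (dashed), the member farthest from it; each point is a group mean of 2 libraries (high) or the single library (low). Tnf and its nearest genes, like Nfkb1, are lowest in the high Satb1 siRNA group and highest in the low NT library. Nfkb1 has a flatter profile and is nearly level between the high groups. Between the low libraries its log2 ratio (-0.50) is near that of Nr4a1 (-0.54).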

How the data were processed

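All 6 libraries were used, and their values stand in 1 table of gene rows. The authors' FPKM values, which allow for gene length and sequencing depth, and the deposited estimated counts (RSEM's expected counts) are named per the file headers. RSEM 1.2.12, DESeq2 and the genome build mm9 are given per the submitters' processing notes, and the aligner, filters and strand setting are not stated there. The counts were already whole, so that rounding changed nothing. The genes, the pathway and marker lists and the tests were chosen with earlier results of these data known.

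Counts were tested with edgeR 4.0.16 in R 4.3.3 (robust quasi-likelihood F-tests, TMM, filterByExpr, two-sided, Benjamini-Hochberg adjustment, threshold 0.05), for the 4 high libraries and, as an interaction over 4 group means, for all 6. Low and control ratios compare TMM-scaled CPM on the log2 scale (prior count 2), over genes whose mean log2 CPM was at least 0; each member's low ratio has an exact 95% interval of its counts. Intervals cover counting error only. Each SE is the absolute log2 fold change divided by the square root of edgeR's F statistic, whose spread is pooled in part over genes. FPKM values served for levels between genes. The genes named are all members, Satb1, the 3 largest called changes of each pathway list and the 6 profiles nearest to Tnf (mean log2 CPM at least 1). The single markers Flt3, Itgax, Cd74, H2-Ab1, Mrc1 and Vsig4 and the Bcl2a1d copies Bcl2a1a and Bcl2a1b were chosen after their values were seen. Deviations of same-numbered high libraries did not correlate (0.0036 over 12925 genes). The repeats differ by little more than counting noise, so this cannot show whether the numbers pair the samples. The main fit used no pairing. Alternatives were library totals alone, other filters, DESeq2 1.42.0, a replicate block, leaving out each high library, summed repeats, other prior counts and, added after the data were seen, FPKM ratios, pathway ratios with library totals and the IkappaB-zeta row counted as Nfkbiz. Coordinates come from RefSeq's GRCm38.p6, not the files' build, and served only to show promoter sequence. Tnfrsf1b, Tnfsf13b, Cd69 and Tnfsf13 were not analysed here.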

Additional observations from a re-analysis of the deposited data

Results flagged for a closer look

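For all 9 members edgeR's test of the difference called the effects of Satb1 siRNA unlike in the experiments. It compares these 6 libraries and not the conditions, since the low groups hold 1 library each and all its spread comes from the high repeats. The high effect minus the low effect, on the log2 scale, was -0.59 for Tnf, whose fall was larger in the high experiment. It was above 0 for the others, with a larger fall in the low experiment: 0.42 for Tnfaip3, 0.58 for Tnfaip2, 0.98 for Nfkbia, 0.32 for Nfkb1, 0.28 for Nfkb2, 0.35 for Relb, 1.01 for Birc3 and 1.55 for Icam1. Among all genes, 39.7% were called in this test.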

How the results depend on the processing

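The counts of members called lower (8) and lower by 2-fold (2) in the high experiment were 7 and 2 with library totals alone, and 8 and 2 under each other setting that keeps the repeats apart, with the replicate block, without filter and with DESeq2 among them. Leaving out each high library gave 8 members in every case and 44 to 47 pathway genes, against 49 with all libraries, 44 with library totals alone and 42 with DESeq2. With the row IkappaB-zeta counted as Nfkbiz the count was 9 of 10. Summed repeats, with siRNA and experiment as terms, left 1 member called by edgeR (Tnf, -1.76, adjusted p 0.0376; 6 members lower at an unadjusted p under 0.05), 1 by 2-fold and 0 pathway genes (26 lower at that unadjusted p), and 3 members and 9 pathway genes by DESeq2; in all genes edgeR then called 6 lower and 0 higher (1093 and 540 at an unadjusted p under 0.05), and DESeq2 135 and 85. That fit pools the repeats and also takes 1 shared siRNA effect over both experiments; which of these ends the calls was not tested. Of single values, Birc3 in the high experiment turned to 0.041 with library totals alone, to 0.011 with a filter of 1 CPM in 2 libraries and to 0.11 in FPKM, and the difference of effects of Nfkb2 turned to -0.020 with library totals alone; the cause was not tested. Members lower by 2-fold in the low experiment numbered 4 with library totals alone and 5 with TMM over the low libraries alone, against 6. Members with a called difference of effects were 9 under each setting run except library totals alone (6), where Nfkb1 (0.027), Nfkb2 and Relb (0.057) were not called. Low ratios rest on 1 library a group, and their direction held in all settings run, for Tnf between -1.47 and -1.12. The members had at least 365 counts in each library.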
